A study of Mus musculus with 6 samples.

Results

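Cells that divide switch on a shared set of genes in the G2 and M phases of the cell cycle. The set examined here holds 54 such genes of the mouse: cyclins and mitotic kinases, parts of the spindle assembly checkpoint, kinetochore proteins, the chromosomal passenger complex, kinesin motors, spindle microtubule proteins, cytokinesis factors and condensin. The genes were listed for their known roles, and a gene was followed through the probe sets whose annotation gave its symbol and no other. A probe set is a group of short oligonucleotides on the array that reads one transcript or related transcripts. Of the 54 genes, 53 had at least 1 such probe set, out of 18194 genes with one on the array. The exception was Ccnb1 (cyclin B1).

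Entry into mitosis is driven by CDK1 bound to cyclin A or cyclin B. Chromosomes are then compacted by condensin, joined to spindle microtubules at the kinetochore, held by the checkpoint until every kinetochore is attached, pulled apart after the anaphase-promoting complex (APC/C) degrades cyclin B and securin, and divided between daughter cells at cytokinesis. In a tumour these transcripts come from any cell in cycle, malignant cells, immune cells and their precursors included.

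RNA was measured in tumour stroma, which the labels call cancer stromata, of male B6 mice 4 weeks after tumour cells were placed under the skin. Pdia4-/- mice (KO, n = 3) carried a knockout of Pdia4, which encodes an endoplasmic reticulum enzyme of disulphide bond formation, and WT mice (n = 3) were the controls. The growth protocol names LLC as the tumour, whereas the series design names GK1, and every mouse of both groups carried it. The labels give neither the age of the mice, nor how the Pdia4 allele was made, nor the genotype of the tumour cells, nor how stroma was separated from tumour cells.

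Each mouse gave 1 Affymetrix Mouse430_2 array, with a linear signal and a detection call (Present, Marginal or Absent) for every probe set. Between 47.0% and 49.2% of probe sets were Present per array. Signals of a group are listed for replicates 1, 2 and 3 in that order. The tested Pdia4 probe set read 2324, 1521 and 1402 in KO stroma, against 3942, 2766 and 4104 in WT stroma (log2 difference -1.06, SE 0.28, limma adjusted p = 0.161), so the targeted transcript was lower on each KO array but still Present on all 6 arrays. Where that probe set lies relative to the deletion is unknown here. KO replicate 3 has a batch number in its header that the remaining 5 arrays do not share, and it stood apart in the mitotic genes, so the results are given with and without it. No other array has its number, so batch and sample cannot be told apart.

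Mean signals of mitotic transcripts were lower in KO stroma across the whole set, but no gene passed the test. Most of the difference came from 1 KO array, and the groups overlapped in the median over the set. The mean log2 signal was lower in KO than in WT stroma for 53 of 53 genes, where 53.4% of all 22063 tested probe sets lay below 0. The median log2 difference (KO minus WT) was -0.76 over the 53 genes and -0.05 over all tested probe sets. The differences ran from -1.38 for Ect2, which activates RhoA for cytokinesis, to -0.01 for Cenpa, the centromeric histone H3 variant. Of the 53 genes, 13 had a difference of -1 or lower, 27 lay between -1 and -0.5, and 13 lay above -0.5. With limma and Benjamini-Hochberg adjustment over all tested probe sets, 0 of the 53 genes were lower and 0 were higher at an adjusted p under 0.05, where 0.00453% of all tested probe sets were lower and 0.0227% were higher. The smallest adjusted p among them was 0.208, for Ndc80. At an unadjusted p under 0.05, 9 genes (17%) were lower, where 10.2% of all tested probe sets were, and 0 were higher, where 9.99% were.

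**Figure D1:**
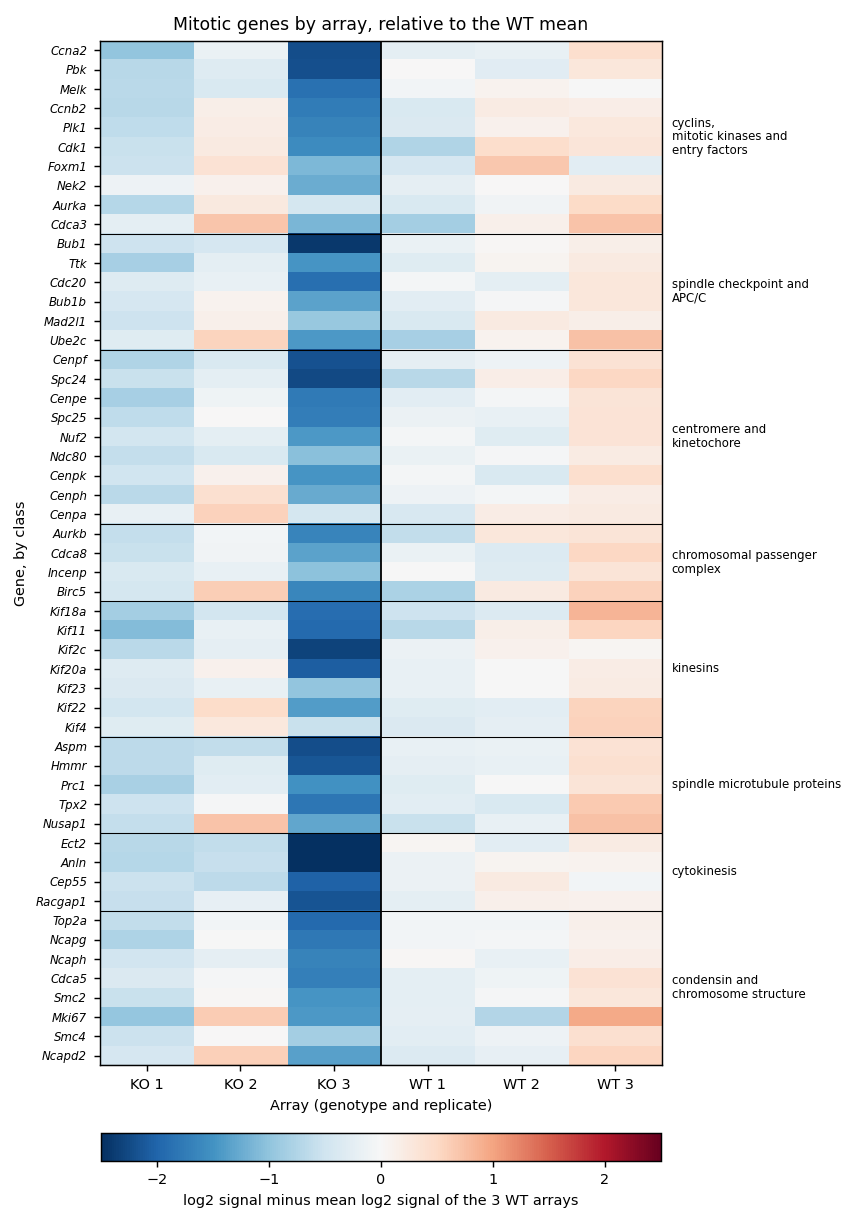
Each row is 1 of the 53 genes, grouped by role, and each column 1 array, with the 3 KO arrays on the left and the 3 WT arrays on the right. Colour gives the log2 signal minus the mean log2 signal of the 3 WT arrays, and the column of KO replicate 3 is the darkest blue, with a median of -1.64.

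The 3 KO arrays were spread more widely in these genes than the 3 WT arrays. Relative to the WT mean of each gene, the median log2 signal of the 53 genes was -0.56 in KO replicate 1, -0.06 in KO replicate 2 and -1.64 in KO replicate 3, against -0.24, -0.04 and 0.31 in WT replicates 1, 2 and 3. In these medians the groups overlapped, KO replicate 2 lying above WT replicate 1. KO replicate 3 was the lowest of the 6 arrays for 52 of 53 genes (98.1%), where it was the lowest for 34.3% of all tested probe sets. The exception was Aurka, a centrosomal mitotic kinase, which was lowest in KO replicate 1. In KO replicate 3 the median gene had 31.1% of its mean WT signal. KO replicate 2 was the highest KO array for 52 of 53 genes (98.1%), with Cep55 the exception, where it was so for 32.2% of all tested probe sets. WT replicate 3 was the highest WT array for 45 (84.9%), where it was so for 28.9%. The median over all tested probe sets lay between -0.05 and 0.01 on every array. In bulk RNA of this kind, fewer dividing cells and less of these transcripts per dividing cell cannot be told apart.

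Without KO replicate 3, 46 of 53 genes (86.8%) were lower in KO stroma, where 52.9% of all tested probe sets were, and the median difference was -0.28, against -0.03 over all tested probe sets. The 7 genes that were then higher had differences from 0.00 (Kif22) to 0.22 (Cdca3). At an unadjusted p under 0.05, 6 genes (11.3%) were lower without this array, where 7.87% of all tested probe sets were. They were Melk, Bub1, Aspm, Ect2, Anln and Cep55, and 0 genes were higher, where 7.48% of all tested probe sets were. No gene passed the adjusted test (0 lower, where 0% of all tested probe sets were), and the smallest adjusted p was 0.224. The other arrays weighed on the count as well. Without KO replicate 2, the highest of the KO arrays, 39 genes were lower at an unadjusted p under 0.05, where 11% of all tested probe sets were, and the median difference was -1.12. The count was 7 without KO replicate 1, where 11.9% of all tested probe sets were lower, and 5 without WT replicate 1, where 5.9% were. It was 0 without WT replicate 2, where 5.73% were, and 0 without WT replicate 3, where 6.5% were. The adjusted count was 0 under each omission.

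**Figure D2:**
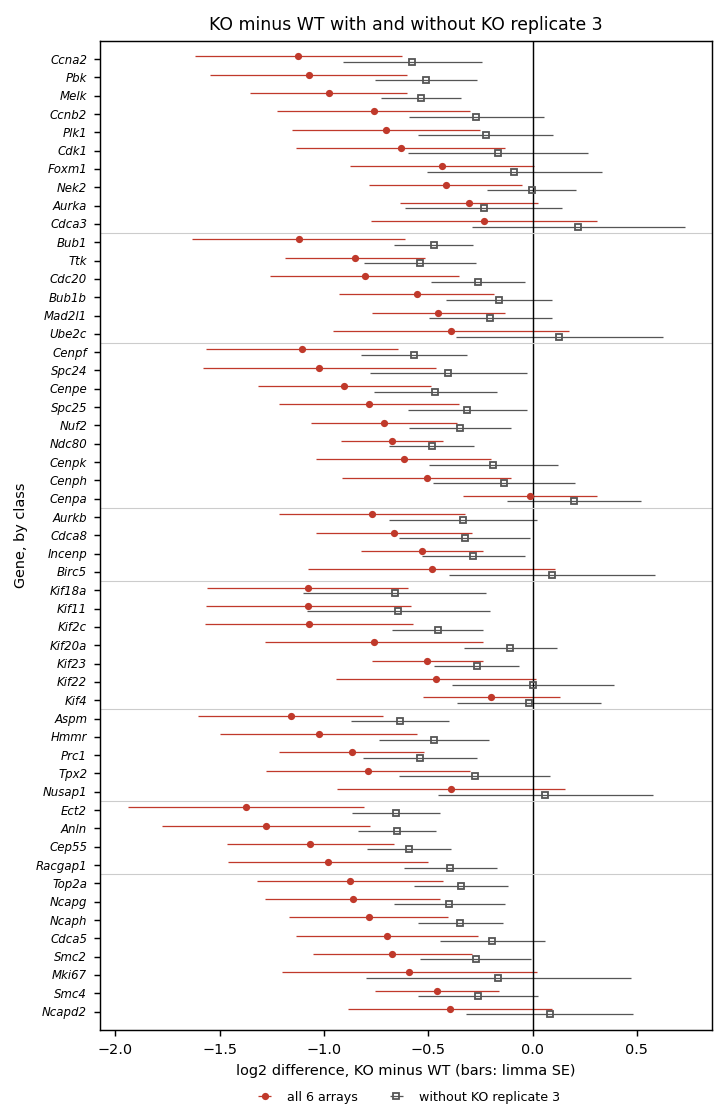
Points give the log2 difference (KO minus WT) of each of the 53 genes with all 6 arrays (filled circles) and without KO replicate 3 (open squares), with limma standard errors as bars. All 53 circles lie below 0, and 46 of the squares do.

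The 2 groups did not overlap for 13 of the 53 genes (24.5%), each KO array lying below each WT array, which was so for 17.1% of all tested probe sets. These genes were Melk, Pbk, Bub1, Cenpf, Ndc80, Kif2c, Hmmr, Aspm, Ect2, Anln, Cep55, Ncaph and Top2a. The exact permutation p was 0.1 for each, the smallest that 3 arrays against 3 can give. Leaving out KO replicate 3 cannot make groups overlap that did not overlap before, and the count without it was again 13, where the share over all tested probe sets was 19.7%. In the brightest tested probe set of each of these 13 genes, every KO mouse was below every WT mouse, KO replicate 3 the furthest. Of the 13, Bub1, Kif2c, Hmmr, Anln, Ncaph and Top2a had other tested probe sets. In those the groups overlapped for all but Bub1.

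Many genes of this set are known to be repressed outside G2 and M through a cell cycle genes homology region (CHR), bound by the DREAM complex and, in cycling cells, by MYBL2 with MuvB, and activated through CCAAT boxes bound by NF-Y. The promoters below are shown because they place those letters in genes from 5 of the classes, with Melk as a promoter that holds neither. Each is written 5′ to 3′ on the gene's own strand, from 150 bases before to 50 bases after the annotated start, from RefSeq on GRCm38.p6, and capitals mark every CHR (TTTGAA or TTCGAA) and CCAAT box (CCAAT) on either strand.
Ect2 chr3:27153829-27154028 (minus strand): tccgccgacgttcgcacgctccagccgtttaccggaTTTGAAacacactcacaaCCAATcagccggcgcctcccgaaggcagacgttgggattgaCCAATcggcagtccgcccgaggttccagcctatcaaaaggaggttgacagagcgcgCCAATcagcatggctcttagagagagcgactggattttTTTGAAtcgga
Aspm chr1:139454623-139454822 (plus strand): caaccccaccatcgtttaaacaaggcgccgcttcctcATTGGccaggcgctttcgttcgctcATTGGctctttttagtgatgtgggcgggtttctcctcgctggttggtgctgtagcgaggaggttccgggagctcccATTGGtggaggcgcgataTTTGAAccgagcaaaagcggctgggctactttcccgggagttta
Cenpf chr1:189688037-189688236 (minus strand): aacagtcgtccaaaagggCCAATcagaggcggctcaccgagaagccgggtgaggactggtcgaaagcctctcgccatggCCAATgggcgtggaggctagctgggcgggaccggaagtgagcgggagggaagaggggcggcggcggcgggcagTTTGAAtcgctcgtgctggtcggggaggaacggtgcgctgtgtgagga
Ttk chr9:83834539-83834738 (plus strand): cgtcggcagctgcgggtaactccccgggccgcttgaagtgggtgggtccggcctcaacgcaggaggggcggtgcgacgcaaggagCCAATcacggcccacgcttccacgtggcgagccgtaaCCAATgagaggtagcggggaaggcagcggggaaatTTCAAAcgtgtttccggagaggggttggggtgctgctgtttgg
Ccnb2 chr9:70421505-70421704 (minus strand): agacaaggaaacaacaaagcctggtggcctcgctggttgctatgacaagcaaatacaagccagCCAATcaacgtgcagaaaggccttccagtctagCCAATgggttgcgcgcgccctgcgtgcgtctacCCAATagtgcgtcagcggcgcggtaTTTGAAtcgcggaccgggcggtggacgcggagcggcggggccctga
Melk chr4:44300767-44300966 (plus strand): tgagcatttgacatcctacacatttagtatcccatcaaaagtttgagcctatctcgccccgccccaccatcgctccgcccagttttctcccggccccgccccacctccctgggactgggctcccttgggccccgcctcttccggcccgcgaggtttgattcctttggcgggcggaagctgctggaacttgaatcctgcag

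In Ccnb2 (cyclin B2) the 3 CCAAT boxes began 33 bases apart, and the CHR began 4 bases after the start. The CHR of Cenpf, Aspm and Ttk began 2, 6 and 7 bases after the start, in each case downstream of every CCAAT box of the stretch. Windows of 300 bases, from 250 before to 50 after a start, were found for 45 of the 54 genes, in 50 windows. A CHR was present in 36 of the 50 windows (72%), and in 19.2% of all 32851 windows. A CCAAT box was present in 37 windows (74%), and in 37.4% of all windows. Both were present in 30 windows (60%), against 7.52% of all windows, and 24 windows (48%) held at least 2 CCAAT boxes, against 11.7%. In 1 member window a CHR and a CCAAT box overlapped. Genes with and without these letters had close median differences in KO stroma. The median log2 difference was -0.73 for the 28 tested genes with both motifs, -0.70 for the 16 with a window but not both, and -0.71 for the 7 with neither. A match is a description of the letters and not of a bound site.

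The cytokinesis genes had the lowest median of the 8 classes, -1.17 over 4 genes (-0.62 without KO replicate 3), with a range over single omissions of -1.50 (without KO replicate 2) to -0.62. Ect2, the exchange factor that activates RhoA at the division site, read 776, 826 and 179 in KO stroma, against 1306.5, 1053 and 1458 in WT stroma. Every KO array was below every WT array, and the lowest KO array was far below the other KO arrays. The means were 594 ± 359.9 in KO and 1272 ± 205 in WT stroma (SD, n = 3 each), a log2 difference of -1.38 (SE 0.57, limma adjusted p = 0.237) and of -0.66 without KO replicate 3. Anln, the anillin scaffold that links the actomyosin ring to septins, read 1356, 1496 and 384.5 in KO stroma, against 2003, 2327 and 2386 in WT stroma (log2 difference -1.28, and -0.65 without KO replicate 3). Cep55, which recruits the abscission machinery to the midbody, read 1184.5, 1093 and 425 in KO stroma, against 1542, 2014 and 1626 in WT stroma (-1.07 and -0.59). In these probe sets of the 3 genes all KO signals were under all WT signals, which held for 17.1% of all tested probe sets. Leaving out KO replicate 3 could not change that. The 3 genes were lower at an unadjusted p under 0.05 with and without that array. Of all tested probe sets, 10.2% were lower at that threshold with all arrays, and 7.87% without KO replicate 3. Racgap1, the centralspindlin subunit that binds Ect2, read 634, 824 and 214 in KO stroma, against 805, 1037 and 1025.5 in WT stroma, and there KO replicate 2 lay above WT replicate 1 (limma adjusted p = 0.289). The other tested probe set of Anln gave a log2 difference of -0.82 and that of Racgap1 -0.26, both with overlap of the groups.

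**Figure D3:**
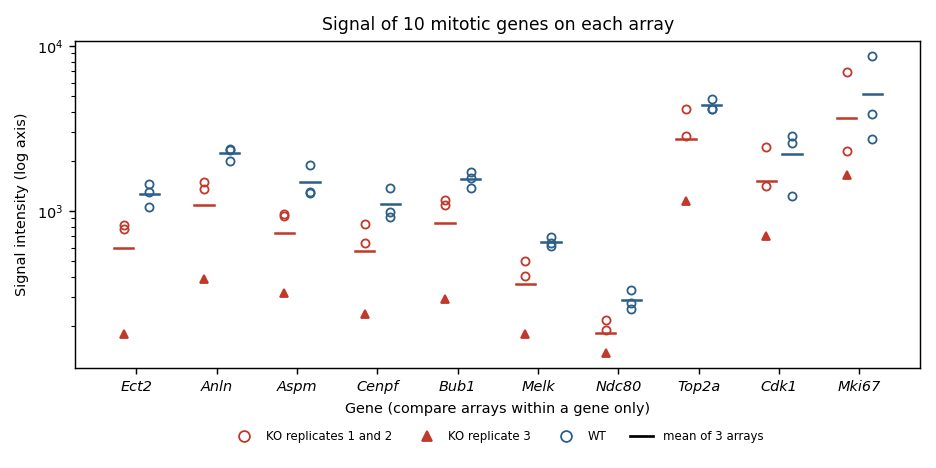
Signal intensity on a log axis for 10 genes, with the 3 KO arrays (red, KO replicate 3 as a triangle) left of the 3 WT arrays (blue) and a line at each group's mean. For Ect2, Anln, Aspm, Cenpf, Bub1, Melk, Ndc80 and Top2a every KO array lies below every WT array, whereas for Cdk1 and Mki67 the groups overlap.

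The 5 spindle microtubule proteins had a median of -0.87 (-0.47 without KO replicate 3, and -1.17 without KO replicate 2). Aspm, a spindle pole protein needed to focus the poles, read 929.6, 964 and 317.5 in KO stroma, against 1288, 1305 and 1887 in WT stroma. Its means were 737 ± 364 in KO and 1493 ± 341 in WT stroma (SD, n = 3 each), and its log2 difference was -1.16 (SE 0.44, limma adjusted p = 0.22). KO replicates 1 and 2 were close to each other and below each WT array, and the difference without KO replicate 3 was -0.63. Prc1, which bundles antiparallel microtubules of the central spindle, read 632.5, 925 and 387 in KO stroma, against 904, 1098 and 1383 in WT stroma (log2 difference -0.87), and KO replicate 2 was just above WT replicate 1. Hmmr, a spindle-associated protein that binds TPX2, read 883, 1121 and 315 in KO stroma, against 1188, 1215 and 1825 in WT stroma (-1.03). The groups did not overlap in that probe set, but the 4 tested Hmmr probe sets ranged from -1.03 to 0.23. Tpx2, the targeting factor of Aurora A, had a difference of -0.79. Nusap1, which stabilises spindle microtubules, had -0.39, and its difference was 0.06 without KO replicate 3, the single positive one of the class.

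Centromere and kinetochore genes had a median of -0.71 over 9 genes (-0.35 without KO replicate 3, and -0.98 without KO replicate 2). Ndc80, the microtubule-binding subunit that names the NDC80 complex, had the smallest spread of the class. Its p was the smallest of the 53 genes, each read by its brightest tested probe set. It read 189, 219.6 and 138 in KO stroma, against 253, 278 and 329.8 in WT stroma, with means of 182 ± 41.4 in KO and 287 ± 39.1 in WT stroma (SD, n = 3 each). The log2 difference was -0.67 (SE 0.24, limma adjusted p = 0.208), and -0.48 without KO replicate 3. The other 3 subunits of that complex had differences of -0.71 (Nuf2), -1.02 (Spc24) and -0.78 (Spc25), and in each the groups overlapped.

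Cenpf, a large protein of the outer kinetochore corona, read 642, 829 and 237 in KO stroma, against 921, 991.5 and 1381 in WT stroma (log2 difference -1.11, and -0.57 without KO replicate 3). The groups did not overlap. Cenpe, a kinesin of the corona that carries chromosomes to the metaphase plate, read 299, 492 and 155 in KO stroma, against 441, 511 and 658 in WT stroma (-0.90 and -0.47), and KO replicate 2 was above WT replicate 1. Cenph and Cenpk, of the constitutive centromere network, had differences of -0.51 and -0.62. Cenpa, which marks the centromere itself, stood at the other end of the set. It read 1739.7, 2964 and 1463 in KO stroma, against 1497, 2245 and 2307 in WT stroma, with the highest value in KO replicate 2, a log2 difference of -0.01 (SE 0.32) and of 0.20 without KO replicate 3. Its sign turned positive under 75th percentile scaling, cyclic loess and quantile normalization, so the count of 53 lower genes became 52 under each of these scalings.

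The 7 kinesins had a median of -0.76 (-0.27 without KO replicate 3, and -1.19 without KO replicate 2). Kif2c, which depolymerises microtubules to correct faulty attachments, read 441, 605 and 143 in KO stroma, against 638, 761 and 730.0 in WT stroma (log2 difference -1.07, SE 0.50, limma adjusted p = 0.273). In the probe sets that stood for each gene, it was the single kinesin whose groups did not overlap. The other tested Kif2c probe set read 109.5, 159.8 and 78.2 in KO stroma, against 94.7, 194 and 127.9 in WT stroma (-0.26), with overlap. Kif11, the motor that pushes spindle poles apart, read 234.5, 438 and 131 in KO stroma, against 308, 557 and 729 in WT stroma (-1.07). Kif18a, which damps chromosome movement at the metaphase plate, was dim, at 80.1, 105.5 and 38.6 in KO stroma, against 101, 115 and 263 in WT stroma (-1.08), with WT replicate 3 well above the other 5 arrays. The central spindle motors Kif20a, Kif23 and Kif4 had differences of -0.76, -0.50 and -0.20, and the chromosome arm motor Kif22 had -0.46. Without KO replicate 3, Kif20a stood at -0.11, Kif4 at -0.02 and Kif22 at 0.00.

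The checkpoint and APC/C genes had a median of -0.68 over 6 genes (-0.23 without KO replicate 3, and -0.995 without KO replicate 2). Bub1, the checkpoint kinase that also phosphorylates histone H2A at centromeres, read 1079.6, 1159 and 291 in KO stroma, against 1382, 1584 and 1709.5 in WT stroma. The groups did not overlap, and the log2 difference was -1.12 (SE 0.51, limma adjusted p = 0.267), and -0.47 without KO replicate 3. Ttk, the MPS1 kinase at the head of the checkpoint, read 188, 281 and 120.1 in KO stroma, against 271, 350.3 and 393 in WT stroma (-0.85), and KO replicate 2 was just above WT replicate 1. Cdc20, the APC/C activator that the checkpoint holds back, read 3238.5, 3570.0 and 1097 in KO stroma, against 3954, 3436 and 4983 in WT stroma (-0.81). The checkpoint proteins Bub1b and Mad2l1 had differences of -0.56 and -0.45. Ube2c, the E2 enzyme of the APC/C, had -0.39 with all arrays, and 0.13 without KO replicate 3, the single positive value of the class.

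Among cyclins, mitotic kinases and entry factors the median was -0.67 over 10 genes (-0.23 without KO replicate 3, and -1.10 without KO replicate 2). Melk, a kinase of proliferating cells, read 405, 495 and 178 in KO stroma, against 614, 692 and 641 in WT stroma, with means of 359.5 ± 163 in KO and 649 ± 39.4 in WT stroma (SD, n = 3 each). Every KO array lay below every WT array, and the difference was -0.98 (SE 0.38, limma adjusted p = 0.222), and -0.53 without KO replicate 3. Pbk, a kinase active in mitosis, read 1175, 1511 and 413 in KO stroma, against 1908, 1548.5 and 2309 in WT stroma (-1.07), also without overlap, although KO replicate 2 came within a few per cent of WT replicate 2. Ccna2 (cyclin A2) read 1195.5, 2093 and 508 in KO stroma, against 1989, 2082 and 3166 in WT stroma (-1.12, SE 0.50), and KO replicate 2 was level with WT replicate 2.

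The kinase at the centre of mitotic entry was not among the genes that separated the groups. Cdk1 read 1424, 2424 and 704 in KO stroma, against 1235, 2843 and 2577.5 in WT stroma, with WT replicate 1 below KO replicate 1, and its log2 difference was -0.63 (SE 0.50, limma adjusted p = 0.478) with all arrays and -0.17 without KO replicate 3. Foxm1, the transcription factor that activates G2 and M genes, was dim, at 136, 252 and 89.9 in KO stroma, against 148, 313 and 164 in WT stroma (-0.43, and -0.09 without KO replicate 3). Ccnb2 and the polo kinase Plk1 had differences of -0.76 and -0.70, the centrosomal kinases Aurka and Nek2 of -0.30 and -0.42, and Cdca3, a trigger of mitotic entry, of -0.23. Without KO replicate 3 the last of these was 0.22, the highest value of the set.

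Cyclin B1 could be read only through a name in another table. Under the platform annotation used here no probe set carried Ccnb1 as its sole symbol. The authors' deposited table gives the name Ccnb1 to 1 probe set, which read 937, 1385 and 412 in KO stroma, against 1306, 1569 and 1812 in WT stroma. Its means were 912 ± 487 in KO and 1562 ± 253 in WT stroma (SD, n = 3 each), and the groups overlapped. The log2 difference was -0.93 (SE 0.43, limma adjusted p = 0.269), and -0.44 without KO replicate 3. It is not counted among the 53 genes.

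Condensin and chromosome structure genes had a median of -0.68 over 8 genes (-0.27 without KO replicate 3, and -1.05 without KO replicate 2). Top2a, the topoisomerase that untangles sister chromatids, read 2864, 4141 and 1141 in KO stroma, against 4168.5, 4163 and 4795 in WT stroma. The groups did not overlap, but KO replicate 2 was just below the lowest WT array, and the log2 difference was -0.87 (SE 0.45, limma adjusted p = 0.302), or -0.34 without KO replicate 3. Ncaph, the kleisin subunit of condensin I, read 1101, 1308 and 481 in KO stroma, against 1552, 1333 and 1715.5 in WT stroma (-0.79), again without overlap. The other tested probe set of Top2a gave -0.29 and that of Ncaph -0.54, both with overlap. Ncapg, another condensin I subunit, read 248, 421 and 123 in KO stroma, against 409, 414 and 459 in WT stroma (-0.86), and there KO replicate 2 was above 2 of the WT arrays. Smc2 and Smc4, the ATPase core of condensin, had differences of -0.67 and -0.46, Ncapd2 had -0.39, and Cdca5 (sororin, which protects cohesion) had -0.70.

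Mki67, the chromosome surface protein used as a marker of cycling cells, had the largest standard error of the set. It read 2319, 6991 and 1661 in KO stroma, against 3854, 2731 and 8739 in WT stroma, so that the highest KO array was above 2 of the 3 WT arrays. Its means were 3657 ± 2906 in KO and 5108 ± 3194 in WT stroma (SD, n = 3 each), and the log2 difference was -0.59 (SE 0.61, limma adjusted p = 0.586). The difference was -1.20 without KO replicate 2, -0.16 without KO replicate 3 and -0.11 without WT replicate 3, so the size rested on single arrays.

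The chromosomal passenger complex, which corrects attachments and later marks the midzone, had the median nearest 0, at -0.60 over 4 genes (-0.30 without KO replicate 3, -0.99 without KO replicate 2 and -0.39 without WT replicate 3). Its kinase Aurkb read 421.5, 611 and 205 in KO stroma, against 417, 781 and 801 in WT stroma (log2 difference -0.77, SE 0.44, limma adjusted p = 0.347). The scaffold Incenp read 4649.5, 5344 and 2985.5 in KO stroma, against 6031, 4851 and 7633 in WT stroma (-0.53), and Cdca8 (borealin) read 1643, 2257 and 950.4 in KO stroma, against 2140.0, 1907 and 3446 in WT stroma (-0.67). In all 3 genes KO replicate 3 was the lowest array and the groups overlapped. Birc5 (survivin) had a difference of -0.48, and of 0.09 without KO replicate 3. None of the 4 genes was lower at an unadjusted p under 0.05 in these probe sets, with or without this array. The dimmer tested Aurkb probe set read 184, 281 and 104 in KO stroma, against 298, 313 and 401 in WT stroma (-0.93, limma adjusted p = 0.227), without overlap and lower at an unadjusted p under 0.05.

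The calls other than Present all fell on KO replicate 3. All 53 genes were Present on each of the other 5 arrays. On KO replicate 3, Nek2, Foxm1 and Ncapg were Absent, and Nuf2, Kif20a and Kif4 were Marginal. These calls did not simply mark the dimmest genes of that array. Kif18a, at 38.6, was Present there, whereas Nuf2 read 302.6.

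The brightest tested probe set stood for each gene, and other probe sets of the same genes mostly gave the same sign. The 53 genes had 123 single-symbol probe sets, of which 88 were tested and 81 (92%) were lower in KO stroma. Of the 35 tested probe sets that did not stand for a gene, 4 were lower at an unadjusted p under 0.05, and 0 were higher. The 4 came from Aurkb, Bub1, Nek2 and Smc4. Over all tested probe sets 10.2% were lower and 9.99% higher at that threshold, so the count of lower ones was near the overall share. Of the 26 genes with several tested probe sets, 7 had probe sets of both signs: Cenpk, Hmmr, Incenp, Kif23, Nusap1, Smc4 and Spc25. The widest range was that of Smc4, from -1.72 to 0.30. Its probe set at -1.72 read 126, 48.9 and 138.6 in KO stroma, against 211.9, 415.8 and 345 in WT stroma (limma adjusted p = 0.160). Probe sets that end in x, which can pick up sequences other than their target, stood for 7 of the 53 genes.

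The authors' deposited table lists 1554 probe sets with a signed fold. Its sign was opposite to the KO minus WT difference of the array signals for 1554 of 1554, so a positive fold there goes with a lower signal in KO stroma. Of the 53 genes, 28 appeared in the authors' deposited table, each with 1 probe set and each with a positive fold, which is 22.8% of the 123 probe sets of these genes. Of all 45037 probe sets, 3.3% are listed there with a positive fold. By class, the authors' deposited table held 4 of 4 cytokinesis genes, 4 of 5 spindle microtubule genes and 5 of 9 kinetochore genes. It also held 4 of 8 condensin and chromosome genes, 3 of 6 checkpoint genes and 3 of 7 kinesins. Of the cyclins and kinases among the 53 genes it held 4 of 10, and of the passenger genes 1 of 4. Ccnb1, which is not among the 53 genes, was listed there as well, with a fold of 2.63. The folds of the 28 genes in the authors' deposited table ran from 2.402 to 4.762 with a median of 2.74. Folds of mean log2 signals for the same probe sets, WT over KO in that table's direction, ran from 1.59 to 3.29 with a median of 1.97, and the authors' fold was the larger for 28 of 28. Its signs follow these arrays, so the authors' deposited table is no independent measurement, and how the folds were derived was not stated.

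Other cell cycle genes were set beside the 53, from lists of their known roles. Of 65 further mitotic genes tested, 57 were lower in KO stroma and 8 higher, with a median of -0.39 (-0.16 without KO replicate 3). At an unadjusted p under 0.05, 11 (16.9%) were lower, where 10.2% of all tested probe sets were, and 1 (1.54%) was higher, where 9.99% were. At an adjusted p under 0.05, 0 were called. The 3 genes of smallest p in this list are named first, and a small p favours genes whose arrays lie close together within a group. Wee1, the kinase that holds CDK1 inactive, read 645, 473 and 662 in KO stroma, against 1185, 1107 and 1042 in WT stroma (log2 difference -0.92, limma adjusted p = 0.148), with KO replicate 2 the lowest array, and its difference was -1.01 without KO replicate 3. Plk4, the kinase that starts centriole duplication, read 1191, 1294 and 855 in KO stroma, against 2146, 2001 and 1774 in WT stroma (-0.84 and -0.66). Smc3, a cohesin ATPase, read 956, 1291 and 868 in KO stroma, against 1437, 2257 and 1696 in WT stroma (-0.79 and -0.67). In these 3 genes the groups did not overlap, but the dimmest tested probe set of Plk4 and that of Smc3 gave differences of 0.34 and 0.25. Over the 65 genes, 14 had each KO array below each WT array and 2 had the reverse. Over all tested probe sets these shares were 17.1% and 13.5%. Lmnb1, the nuclear lamina protein lamin B1, was the one gene of that list higher at an unadjusted p under 0.05, at 2305, 3586 and 4417 in KO stroma, against 1824, 2085 and 2054 in WT stroma (0.74).

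Genes of DNA replication, which act in S phase, lay in the same direction as the mitotic genes. Of 32 tested, 30 were lower in KO stroma, with a median of -0.50 (-0.14 without KO replicate 3), and KO replicate 3 was the lowest array for 29. At an unadjusted p under 0.05, 3 (9.38%) were lower, near the 10.2% of all tested probe sets. Mcm6, a subunit of the replicative helicase, read 3821, 3819 and 1174 in KO stroma, against 5803, 5776 and 5494 in WT stroma (log2 difference -1.14, limma adjusted p = 0.229). Pold1, the catalytic subunit of DNA polymerase delta, read 754, 730.0 and 475.5 in KO stroma, against 954, 1013 and 1297 in WT stroma (-0.75), and Pola1, of the polymerase alpha primase, read 522, 656 and 409 in KO stroma, against 696, 800.2 and 934 in WT stroma (-0.63). The groups did not overlap in any of the 3 genes, which were named for the smallest p of the list. Over the 32 genes tested, 4 had each KO array below each WT array and 0 had the reverse. Over all tested probe sets these shares were 17.1% and 13.5%.

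Regulators of G1 and of the mitotic promoters were given by 2 more lists. Of 26 G1 cyclins, CDK inhibitors, E2F and pocket proteins tested, 17 were lower and 9 higher, with a median of -0.17 (0.03 without KO replicate 3). At an unadjusted p under 0.05, 3 (11.5%) were lower and 1 (3.85%) was higher, beside 10.2% and 9.99% of all tested probe sets. E2f7, a repressor of E2F targets, read 247, 312 and 136 in KO stroma, against 456, 365 and 511 in WT stroma (log2 difference -1.01). E2f5, an E2F that binds pocket proteins, read 377, 366 and 301 in KO stroma, against 564, 573.5 and 467 in WT stroma (-0.62). Btg2, an antiproliferative gene induced by p53, was the one higher, at 2454, 2506 and 4978 in KO stroma, against 928, 1249 and 2288 in WT stroma (1.18, SE 0.41, limma adjusted p = 0.201), without overlap of the groups and with its highest value in KO replicate 3. Of 9 tested genes of the DREAM, MYBL2 and NF-Y complexes, 5 were lower and 4 higher, with a median of -0.34 (-0.21 without KO replicate 3), and 0 passed an unadjusted p under 0.05 in either direction. Rbbp4, Mybl1 and Lin9, those of smallest p, had differences of -0.54, -0.56 and -0.34. At an adjusted p, 0 genes of these lists were called.

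**Figure D4:**
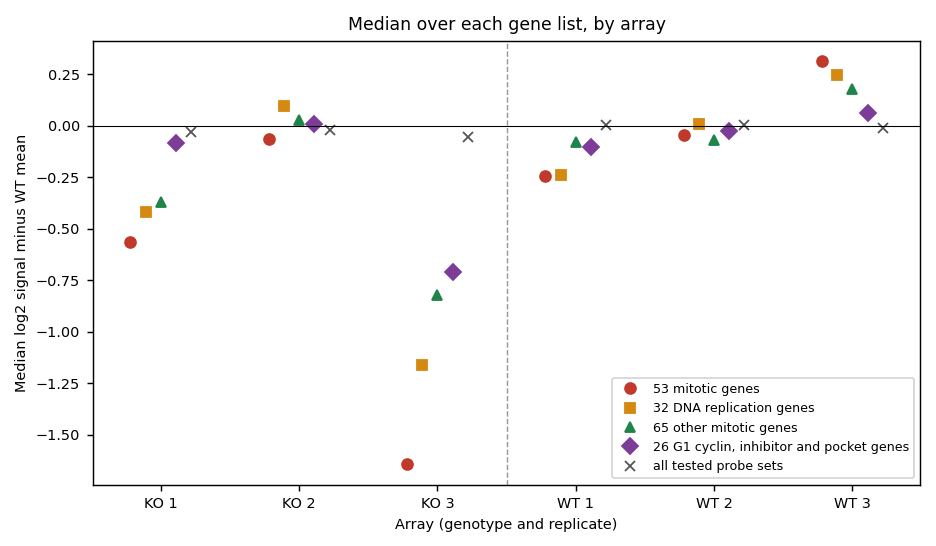
Median over each gene list of the log2 signal minus the mean log2 signal of the 3 WT arrays, by array, with KO arrays left of the dashed line and WT arrays right of it. In KO replicate 3 the medians were -1.64 for the 53 mitotic genes, -1.16 for DNA replication, -0.82 for other mitotic genes, -0.71 for G1 regulators and -0.05 for all tested probe sets.

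Markers of other cell types also differed between the arrays. Across the groups, the summed signal of 8 epithelial and tumour cell markers was 6719, 5469 and 2544 in KO stroma, against 15570.0, 14684 and 11701 in WT stroma. It was lower on each KO array than on each WT array, and lowest on KO replicate 3, the array lowest in mitotic genes. Epcam, Krt19 and Cldn4 of that list were Present on 0 arrays. Of the 8, 3 were tested, with 2 lower and 1 higher. The 2 were lower at an unadjusted p under 0.05, where 10.2% of all tested probe sets were. The summed signal of 8 fibroblast markers was 40735 to 55239 in KO stroma, against 64350.4 to 66934 in WT stroma. Single markers differed, with 5 lower (4 at an unadjusted p under 0.05) and 3 higher (1 at that threshold). Over all tested probe sets, 10.2% were lower and 9.99% higher at that threshold. The summed signal of T cell markers (9 of 12 listed had a probe set) was 8906 to 11301 in KO stroma, against 3122 to 6589 in WT stroma. Cd4 was Present on 0 arrays. Of 8 T cell markers tested, 8 were higher, 6 of them at an unadjusted p under 0.05. Endothelial markers summed to 1589 to 1849 in KO and 1012 to 1262 in WT stroma, and macrophage markers to 115993 to 160605 in KO and 86358 to 111394 in WT stroma. KO replicate 3 was the highest of all arrays in the T cell, endothelial and macrophage sums, and the lowest in the fibroblast sum.

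Within each group, the array highest in the mitotic genes was also the highest in markers of blood cell precursors. The summed signal of 9 granulocyte precursor markers was 22190.4, 122706 and 42532 in KO stroma, against 12077, 7908 and 143034 in WT stroma. The erythroid precursor sum was 1128, 14279 and 655 in KO stroma, against 557, 1215 and 13123 in WT stroma. KO replicate 2 and WT replicate 3, the arrays highest in mitotic genes within their groups, were the highest in both sums. The remaining arrays followed the order of the mitotic genes in the erythroid precursor sum but not in the granulocyte precursor sum. The granulocyte precursor sum was higher in KO replicate 3 than in KO replicate 1, and higher in WT replicate 1 than in WT replicate 2. The B cell sum, at 471, 2772 and 647 in KO stroma, against 432, 341 and 8228 in WT stroma, had its highest values on these arrays too, and Pax5 of that list was Present on 0 arrays. The sum of mature neutrophil markers was 137599 to 188475 in KO and 70510.5 to 180353 in WT stroma, with the highest value in KO replicate 3. Of 6 of these markers tested, 6 were higher in KO stroma, 4 of them at an unadjusted p under 0.05, where 9.99% of all tested probe sets were. The part of any of these cell types in the mitotic signals was not tested. The ratio of 3′ to 5′ actin signal, a measure of RNA integrity, was 1.99, 1.51 and 1.52 in KO stroma, against 4.26, 1.66 and 2.70 in WT stroma, and its part was not tested either.

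**Figure D5:**
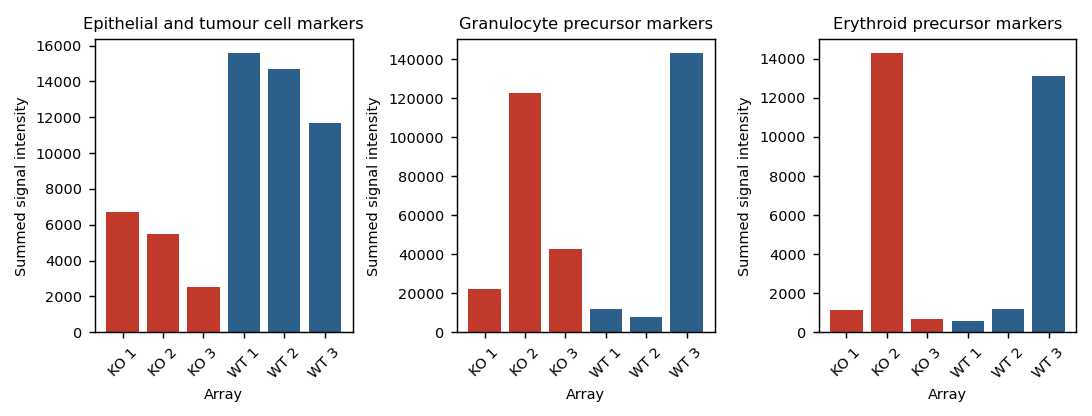
Bars give the summed signal intensity of 3 marker lists on each array, with KO arrays (red) left of WT arrays (blue). Epithelial and tumour cell markers were lower on all 3 KO arrays, whereas granulocyte and erythroid precursor markers were highest on KO replicate 2 and WT replicate 3.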

How the data were processed

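Total RNA was extracted with Trizol and hybridised as biotinylated cRNA, per the labels' protocols. The signal intensity values and detection calls were deposited by the authors for 45101 probe sets per array. The report file of one array names the Statistical algorithm with a target of 500, and the trimmed mean was 500 on each array. The authors' value table equalled the array files in 270606 of 270606 cells. The score values deposited by the authors, a signed fold for 1554 probe sets, came without a stated derivation.

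KO and WT log2 signals were fitted in R 4.3.3 by limma 3.58.1 (lmFit, then eBayes, two-sided, no covariates), with Benjamini-Hochberg adjustment over 22063 probe sets Present on at least 3 of the 6 arrays, after removal of 64 control probe sets. The brightest tested probe set with a single symbol stood for a gene. Of 45101 probe sets, 34958 had a single symbol, 932 several and 9211 none, and 34754 of the single symbols matched the GRCm38.p6 gene table with 0 changes. Named genes are Mki67, Top2a, Cdk1, Ccnb1 and Foxm1, the 3 of smallest p in each class or list, and those that differ in direction. The genes, lists and naming rule were chosen with earlier results of these data known, so counts over a list are descriptions. The fit was tested on simulated data. Replicates have no stated pairing, and a p-value here measures only the spread among these samples, which may be technical. Correlations of deviations between same-numbered arrays were 0.157, 0.0254 and -0.101, so numbers were not taken as pairs. The number of arrays limits the precision. Alternatives were 3 scalings, 2 filters, a replicate block, array weights, robust moderation, a pseudocount of 16, other probe set choices and leaving out each array.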

Additional observations from a re-analysis of the deposited data

How the results depend on the processing

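No mitotic gene passed an adjusted p under 0.05 in any setting that was run, and the smallest adjusted p among them lay between 0.161 and 0.476 over the alternatives. The count lower at an unadjusted p under 0.05, 9 of 53 with all arrays, was the least stable result. It was 0 with no filter on detection calls, 17 of the 48 tested when Present was required on all 6 arrays, 15 with trend and robust moderation, 14 with a pseudocount of 16, and 0 to 39 over omissions of single arrays. With the replicate block it was 3, and the block changed no other call of these genes. The shares of all tested probe sets under these filter, moderation, pseudocount and block settings are not given here. Whether the shifts are particular to the mitotic genes was not tested, and nor was their cause. The median of the 53 genes stayed below 0 throughout, from -1.12 to -0.28 over single omissions. Cenpa turned positive under 75th percentile scaling, cyclic loess, quantile normalization and array weights. With the dimmest tested probe set of each gene, 47 of 53 were lower, the median of the spindle microtubule proteins was -0.13, and Cenpk (0.20), Hmmr (0.23), Kif23 (0.06), Nusap1 (0.21), Smc4 (0.30) and Spc25 (0.18) turned positive, as did Plk4 (0.34), Smc3 (0.25) and Rbbp4 (0.47) of the other named genes. Of the other values for single named genes, 656 kept their sign and their side of the threshold. Over all probe sets, 6 were called, and 0 to 27 in the alternatives. Precision is limited by 3 arrays a group, and Nek2, Foxm1 and Ncapg were Absent on KO replicate 3.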
